A study of Mus musculus with 7 samples.

Results

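The ribosomal protein genes were examined in papillomas with and without induced *Nanog*. Members were all gene symbols that begin with Rpl or Rps followed by a digit, without the ribosomal S6 kinases (Rps6k) and without symbols marked as pseudogenes by "-ps". The rule found 82 of 23284 symbols. Of these, 49 are names of the large (60S) subunit and 32 of the small (40S) subunit. The remaining name is *Rps19bp1*, which encodes a binding partner of RPS19 and not a ribosomal protein. *Rps4x* and its autosomal relative, listed in the files as *Rps4y2*, were chosen by their measured FPKM in TG and CTR papillomas. Differences between the groups are therefore given here as descriptions of these 7 papillomas.

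RNA-seq was done on papillomas from 4 CTR and 3 TG mice, each from a different animal. All mice were C57Bl/6, carried the *tetO-Nanog* transgene downstream of *Col1a1*, and drank doxycycline (DOX, 2 mg/ml) during the whole DMBA/TPA protocol, a chemical carcinogenesis of the skin with 1 mutagen (DMBA) and 1 tumor promoter (TPA). Mice were 8 to 10 weeks old at the start and received TPA for 15 weeks. Papillomas were taken when the protocol ended or when a mouse reached its humane endpoint, so collection times can differ. The time for each papilloma is not stated. TG mice also had *K5-rtTA*, a transactivator under the keratin 5 promoter, which is active in basal keratinocytes of stratified epithelia. CTR mice were littermates without it. Papillomas were not sorted, so other cells of the tumor contribute RNA. In such bulk RNA, fewer cells of a type and less RNA per cell cannot be told apart.

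The cytosolic ribosome makes all proteins encoded in the nucleus. Its small subunit holds the decoding site for the mRNA and its large subunit forms the peptide bond. Most of its proteins are present once in each ribosome, and the genes that encode them lie scattered over the genome. Their transcripts are short, very abundant and often begin with a run of pyrimidines, the 5′ terminal oligopyrimidine (TOP) motif, through which mTORC1 controls their translation. Reverse transcription of these abundant mRNAs has left many processed copies in mammalian genomes. Short reads can match a gene and its copies equally well.

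The copies bear on how far an FPKM value (mapped fragments scaled by transcript length and by library size) belongs to the named gene, so sequences are shown first. They were taken from GENCODE transcripts of the mouse genome GRCm38. *Rps4x* encodes a 40S protein and lies on the X chromosome, chrX:102184943-102188371. *Rps4y2* has its name from the human Y-linked gene, but its entry lies on chromosome 6, chr6:148354656-148355596. RefSeq calls the same interval *Rps4l* and classes it as a transcribed pseudogene. It lies on the plus strand inside *Tmtc1*, a gene of the minus strand, and overlaps 0 exons of that gene. Of the 789 coding bases of *Rps4x*, 783 could be aligned with *Rps4l*, and 157 of them differed, which gives an identity of 79.9%. The stretch of 90 bases with the most differences, positions 484 to 573 of the *Rps4x* coding sequence, is shown with differing bases in capitals.
Rps4x: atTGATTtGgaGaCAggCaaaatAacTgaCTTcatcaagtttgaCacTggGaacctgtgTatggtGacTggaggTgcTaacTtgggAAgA
Rps4l (listed as Rps4y2): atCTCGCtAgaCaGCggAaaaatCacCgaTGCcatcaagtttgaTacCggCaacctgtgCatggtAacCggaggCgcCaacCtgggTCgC
Reads had 40 bases and were aligned with up to 2 mismatches. Of 744 aligned windows of 40 bases, 0 were identical between *Rps4x* and *Rps4l*, and 21 (2.82%) lay within 2 mismatches. In the stretch above, 27 of 90 bases differ.

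*Rps27* is the opposite case. *Rps27* encodes a zinc finger protein of the 40S subunit. Its retrocopy *Rps27rt* on chromosome 9, which RefSeq classes as protein coding, has the same 252 coding bases, with 0 differences. *Rps27l*, a p53-responsive paralog with its own introns, is less alike. Over coding positions 1 to 90, *Rps27* and *Rps27l* differ at 24 bases, shown in capitals.
Rps27 (Rps27rt has the same bases): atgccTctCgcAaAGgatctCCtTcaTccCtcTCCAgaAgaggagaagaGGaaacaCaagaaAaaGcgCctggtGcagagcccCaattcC
Rps27l: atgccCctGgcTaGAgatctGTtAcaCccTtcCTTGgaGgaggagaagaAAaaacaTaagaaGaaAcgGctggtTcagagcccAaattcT
No window of 40 bases of *Rps27* lay within 2 mismatches of *Rps27l* (0 of 187). The longest coding transcript of each member (for *Rps4y2* its non-coding transcript) was compared with all other annotated transcripts in the same way, here counting identical windows of 40 bases. The share of windows found in another gene was 98.7% for *Rps27*, the highest of the 82 members, and 76.4% for *Rps4x*. For *Rps4y2* it was 19.5%, all of them in 1 other gene, *Rps4l-ps*. It was 0% for *Rpl3l* and *Rps19bp1*. The median over members was 51.9%, and 43 of 82 members had at least 50% of their windows in another gene.

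The TOP run was then searched at the start sites of the members. RefSeq start-site sequences were found for 61 of the 82 members. The run was searched on the sense strand as a C followed by at least 4 pyrimidines. It began at the annotated start base in 11 of the 61 members (18.0%), against 2.49% of 27025 genes. Between 5 bases before and 10 bases after the start it was found in 27 members (44.3%), against 18.5% of all genes. Among the members described in detail, those without a run there included *Rps4x*, *Rps12*, *Rpl41*, *Rpl22*, *Rpl36al* and *Rpl3l*. Windows of 30 bases around the start (RefSeq, GRCm38) are shown for *Rps27*, *Rpl18* and *Rps27l*, which were picked from the members with a run. The run is in capitals as far as it lies in the searched bases.
Rps27, chr3:90213634-90213663, minus strand: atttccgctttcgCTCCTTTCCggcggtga
Rpl18, chr7:45718056-45718085, plus strand: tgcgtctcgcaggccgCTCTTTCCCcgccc
Rps27l, chr9:66946071-66946100, plus strand: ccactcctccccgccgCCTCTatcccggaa
These are starts given by RefSeq, which need not be the start of the entry in the files. For *Rps27l*, and among the members without a run for *Rps4x* and *Rpl22*, the listed entry begins downstream of it. The motif CTTTCC, which can overlap the TOP run, occurred from 20 bases before to 30 bases after the start in 10 of 61 members (16.4%) on the sense strand, against 2.37% of all genes. On the antisense strand it occurred in 1.64% of members and 2.17% of genes.

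Depth was similar in 5 libraries and higher in CTR 3 and TG 1. The files give no read numbers, and the width of the Cufflinks intervals implied 10075778 to 10671429 reads on genes in 5 libraries, 15622446 in CTR 3 and 15710864 in TG 1. *Nanog* had 2.70, 2.84, 12.7 and 3.34 FPKM in CTR 1 to CTR 4, and 36.9, 57.4 and 66.9 FPKM in TG 1 to TG 3, so each library was on the side of its label. All 10 keratinocyte markers were detected, with a summed level of 19283 FPKM in TG 3 and 25188 to 39367 FPKM in the others. The markers did not go the same way. *Krt14*, *Krt1*, *Krt10*, *Krt6a*, *Krt16* and *Sfn* were lowest in TG 3, whereas *Krt5* was highest there (1783 FPKM). *Trp63*, *Perp* and *Dsp* lay within the range of the other papillomas. TG 3 stood apart. Its 12 skeletal muscle markers summed to 819 FPKM, against 9.06 to 14.0 FPKM elsewhere, and all 12 were highest in TG 3. Its 6 fibroblast markers summed to 678 FPKM against 73.5 to 129 FPKM, and 6 leukocyte markers to 256 FPKM against 45.2 to 96.8 FPKM, with *Cd79a* at 0. The 3 endothelial markers summed to 18.7 FPKM in TG 3 and 4.42 to 10.9 FPKM in the others. Of the adipocyte markers, *Adipoq* was at 3.34 FPKM in TG 3 and below 0.034 FPKM in every other papilloma, and the sum over 4 markers (1374 to 3228 FPKM) was nearly all *Fabp4*. The 5 germ cell markers were each at most 0.5 FPKM in all papillomas. Each result below that rests on TG 3 is given with this in view.

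Ribosomal protein genes were among the most abundant transcripts of the papillomas. The 81 members without a failed estimate made up 13.5%, 15.4%, 15.7% and 12.6% of all summed FPKM in CTR 1 to CTR 4. In TG 1 to TG 3 they made up 16.3%, 12.4% and 10.4%. The mean share was 14.3% ± 1.50 (SD, n = 4) in CTR and 13.0% ± 2.97 (SD, n = 3) in TG. The difference of -1.27 percentage points was smaller than the SD of either group, and the groups overlapped. It was 0.02 points without TG 3, -2.90 without TG 1 and -0.80 without CTR 3. The TG group held both the highest share (TG 1) and the lowest (TG 3). The 2 subunits moved together: the 60S names took 5.54% to 8.58% of the summed FPKM and the 40S names 4.88% to 7.67%, both lowest in TG 3 and highest in TG 1.

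Single members spanned a wide range of levels, and most lay close together at the top. Of the 81 members, 70 had a 7-papilloma mean of 200 FPKM or more and 6 had one under 20 FPKM. *Rps12*, a 40S protein near the beak of the subunit, had the highest mean, with 1374, 1940, 1914 and 1331 FPKM in CTR 1 to CTR 4 and 2502, 1509 and 1114 FPKM in TG 1 to TG 3. *Rpl41*, which encodes a very short and basic 60S peptide, followed with a mean of 1599 FPKM and a range from 899 FPKM in TG 3 to 2822 FPKM in TG 1. In both genes a TG papilloma was the highest and another TG papilloma the lowest. *Rps20* (mean 1267 FPKM), *Rpl13a* (1099 FPKM) and *Rps3a* (1090 FPKM) completed the 5 highest, and in each the groups overlapped. *Rps27* enters this order by its named entry alone, with a mean of 726 FPKM. Its sum with the second entry over its locus, described below, had a mean of 1199 FPKM, above *Rpl13a*. *Rpl13a*, whose protein also takes part in transcript-specific silencing of translation, was highest in CTR 3 with 1580 FPKM. FPKM is a level per length of transcript, so these orders are between genes. Neighbours in this order did not differ beyond the spread between papillomas, since the SD over the CTR group alone was 332 FPKM for *Rps12*, 491 FPKM for *Rpl41* and 277 FPKM for *Rps20*.

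The 5 lowest members were *Rpl10l*, *Rpl3l*, *Rpl39l*, *Rps4y2* and *Rpl30*. *Rpl10l* and *Rpl39l* are paralogs known from the testis. *Rpl10l* was listed at 0 except for 0.063 FPKM in CTR 4, and *Rpl39l* had between 0.218 and 1.81 FPKM. *Rpl30*, an ordinary 60S protein of every cell, had only 0.516 to 28.0 FPKM, which is described with the shared loci below. *Rpl10l* and *Rpl3l* had a mean under 0.5 FPKM and were not tested, and *Rpl34* had a failed estimate in CTR 4 and TG 3, so 79 members entered the fit.

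*Rps4y2* had 0.210, 2.21, 0.318 and 1.12 FPKM in CTR 1 to CTR 4, and 37.9, 16.1 and 1.67 FPKM in TG 1 to TG 3. TG 1 and TG 2 lay above every CTR papilloma, while TG 3 lay below CTR 2, so the groups overlapped. The interval widths implied 607 reads in TG 1 and 148 in TG 2, against 15 in TG 3 and 2 to 21 in the CTR libraries. The group means were 18.6 ± 18.2 FPKM (SD, n = 3) and 0.964 ± 0.924 FPKM (SD, n = 4), and the TG SD was about as large as the TG mean. On the log2(FPKM + 0.5) scale the difference was 3.14 ± 0.89 (SE). This is the value for which the gene was chosen. *Nanog* was highest in TG 3, where *Rps4y2* was the lowest of the TG group. Without TG 3 the difference was 4.32 ± 0.55 (SE), without TG 1 it was 2.25 and without TG 2 it was 2.85. In the 5 libraries of lower depth alone (CTR 1, CTR 2, CTR 4, TG 2 and TG 3) it was 2.04. The deeper libraries hold only 1 papilloma of each group.

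*Rps4x* had 1113, 1171, 961 and 1083 FPKM in CTR 1 to CTR 4 and 1275, 1076 and 860 FPKM in TG 1 to TG 3. The groups overlapped, with means of 1082 ± 88.4 FPKM (SD, n = 4) and 1070 ± 208 FPKM (SD, n = 3) and a log2 difference of -0.03 ± 0.23 (SE). *Rps4y2* made up 0.0189% to 0.188% of the pair's summed FPKM in CTR, and 2.89%, 1.48% and 0.194% in TG 1 to TG 3. Even in TG 1 most of the pair's signal was thus listed under *Rps4x*. *Tmtc1*, the gene that surrounds *Rps4y2*, had at most 0.558 FPKM (in TG 3) and 0.0452 FPKM in TG 1. The Y-linked gene *Ddx3y* was above 5 FPKM in CTR 1, CTR 2 and TG 2, and no other papilloma exceeded 0.022 FPKM. High *Rps4y2* was therefore seen in 1 papilloma with *Ddx3y* above 5 FPKM (TG 2) and in 1 without (TG 1). *Rps4x* had 1113, 1171 and 1076 FPKM in the papillomas with that transcript and 860 to 1275 FPKM in the other 4.

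**Figure D1:**
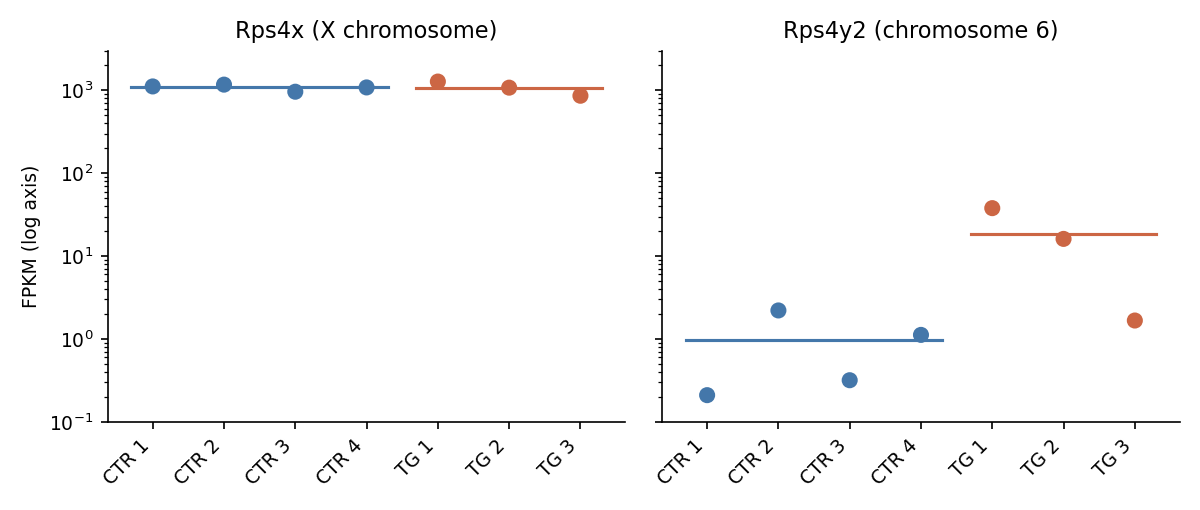
FPKM of *Rps4x* and *Rps4y2* (log axis) in each of the 4 CTR (blue) and 3 TG (orange) papillomas, with lines at the group means. *Rps4x* stays between 860 and 1275 FPKM, whereas *Rps4y2* reaches 37.9 and 16.1 FPKM in TG 1 and TG 2 and 1.67 FPKM in TG 3, below the 2.21 FPKM of CTR 2.

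At 4 members the files list a second gene over the same locus, with at least 90% of each interval inside the other. RefSeq places each of these second genes on another chromosome: *Gm9846* is *Rps27rt* on chromosome 9, *Gm12191* lies on chromosome 11, *Rpl34-ps1* on chromosome 6 and *Gm15772* on chromosome 5. Of the coding bases, 99.7% were identical between *Rpl30* and *Gm12191* and 99.4% between *Rpl34* and *Rpl34-ps1*, as were 99.5% between *Rpl26* and *Gm15772*. All aligned windows of these pairs were within 2 mismatches of each other. The 2 entries of a locus took different parts of their sum in different papillomas.

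*Rps27* had 732, 97.2, 1578 and 813 FPKM in CTR 1 to CTR 4 and 1719, 45.3 and 97.7 FPKM in TG 1 to TG 3. *Gm9846* had 244, 1088, 56.8 and 142 FPKM in the same CTR papillomas and 74.2, 1090 and 619 FPKM in TG 1 to TG 3. Where *Rps27* was low, *Gm9846* was high. The files mark *Gm9846* with the status LOWDATA, which is not that of a regular estimate (OK), so the sums below rest on it as listed. *Rps27* held between 3.99% and 96.5% of the summed FPKM of the 2 entries. The log2 difference of *Rps27* alone was -1.48 ± 1.27 (SE), the lowest of the 79 tested members, and its highest value was 37.9 times its lowest. The difference was -3.04 without TG 1 and -0.42 without TG 2. For the sum of both entries the difference was -0.03 and the highest value was 2.50 times the lowest. The sums were 1188 ± 315 FPKM (SD, n = 4) in CTR and 1215 ± 543 FPKM (SD, n = 3) in TG.

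*Rpl30* encodes a 60S protein that also regulates the splicing and translation of its own RNA in yeast. It had 3.05, 3.24, 12.6 and 6.65 FPKM in CTR 1 to CTR 4 and 28.0, 5.75 and 0.516 FPKM in TG 1 to TG 3. *Gm12191* over the same locus had 448 FPKM in TG 3 to 836 FPKM in TG 1. The named gene held at most 3.24% of the sum. The sums of 669 ± 106 FPKM (SD, n = 4) in CTR and 637 ± 211 FPKM (SD, n = 3) in TG lie among the levels of the other 60S genes.

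*Rpl34* had 619, 615, 75.6 and 626 FPKM in CTR 1 to CTR 4 and 98.7, 245 and 500 FPKM in TG 1 to TG 3, of which the values in CTR 4 and TG 3 carry the status of a failed estimate. *Rpl34-ps1* was highest in CTR 3 (742 FPKM) and TG 1 (797 FPKM), the papillomas where *Rpl34* was lowest, and it also had a failed estimate in part of the files. The summed level spanned 500 to 896 FPKM. *Rpl26* (396 to 1179 FPKM) and *Gm15772* (0 to 311 FPKM, status LOWDATA) had sums between 707 and 1179 FPKM, and *Gm15772* took its largest part in TG 3. Adding the second entries brought the log2 differences from -0.67 to -0.15 for *Rpl34* and from -0.22 to -0.08 for *Rpl26*. Besides these 4, another 42 entries lay over members' loci, 33 of them small nucleolar or microRNAs, and the highest of them had 12.9 FPKM.

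**Figure D2:**
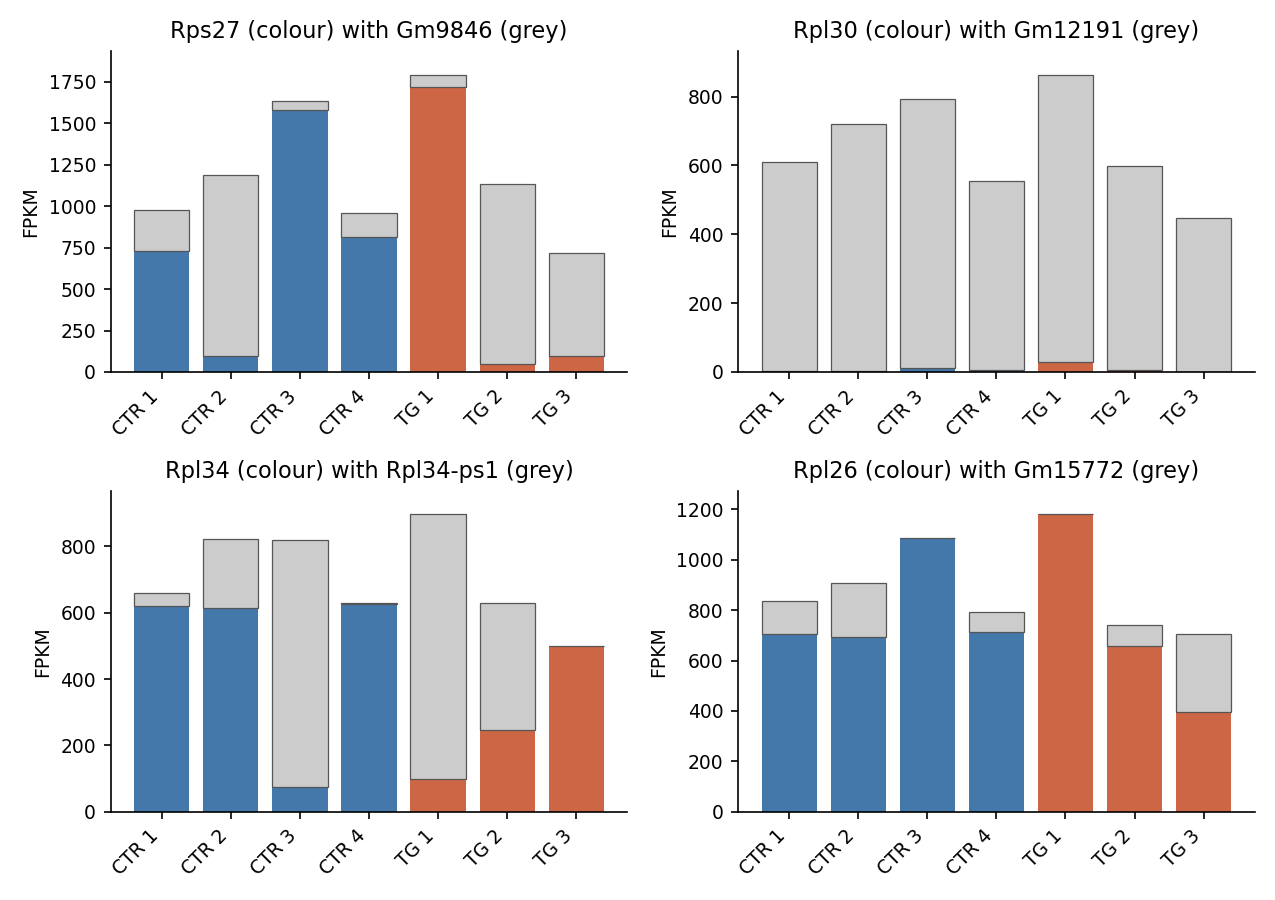
Stacked FPKM of 4 ribosomal protein genes (blue in CTR, orange in TG) and of the second entry that the files list over the same locus (grey) in each papilloma; *Rpl34* values in CTR 4 and TG 3 come from failed estimates, as do some of *Rpl34-ps1*, and *Gm9846* and *Gm15772* have the status LOWDATA. *Rps27* holds from 3.99% to 96.5% of its bar and *Rpl30* at most 3.24%, while whole bars differ by at most 2.50 times.

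Among the 79 tested members, 0 passed an adjusted p of 0.05 in either direction (limma, Benjamini-Hochberg over 12299 genes), where 0% of all tested genes passed in either direction. At an unadjusted p under 0.05 from limma, 1 member was higher in TG (*Rps4y2*; all genes 4.86%) and 1 was lower (*Rps27l*; all genes 1.96%). Without TG 3, *Rps4y2* passed the adjusted threshold as 1 of 9 genes higher in TG (0.0751% of 11990 genes, with 0 members among the 0.0667% lower). With sample quality weights it was 1 of 49 genes higher (0.398% of 12299 genes, with 0 members among the 0.293% lower). The unadjusted count of lower members was 0 without any 1 of the CTR papillomas and 0 without TG 2, and 2 without TG 1, and that of higher members was 0 in the 5 libraries of lower depth. Since *Rps4y2* was chosen for this contrast, its passing is no independent evidence, and nothing is read from these counts. In 1 member, *Rps27l*, all TG papillomas lay below all CTR papillomas (all genes 2.23%), and in 0 members did all lie above (4.93%).

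Group means of most members were slightly lower in TG. The log2 difference was negative for 68 members and positive for 11, beside 40% of all tested genes with a negative value. The median over members was -0.10 and the median over all tested genes 0.06. Of the 79, 72 had differences within 0.3 of 0, and the median SE was 0.28, so the typical difference was smaller than its own error. The 60S and 40S names had the same median of -0.10. Without TG 3, the sign turned: the median was 0.11, with 60 members positive and 19 negative, and the median of all genes was -0.03. Without TG 1 the median of the members was -0.35. In the 5 libraries of lower depth the median was -0.26, beside 0.13 for all genes. Under upper-quartile scaling the median was -0.17, beside 0.002 for all genes. Under quantile normalization it was -0.09, beside -0.03 for all genes, so the distance between the 2 medians was smaller there.

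**Figure D3:**
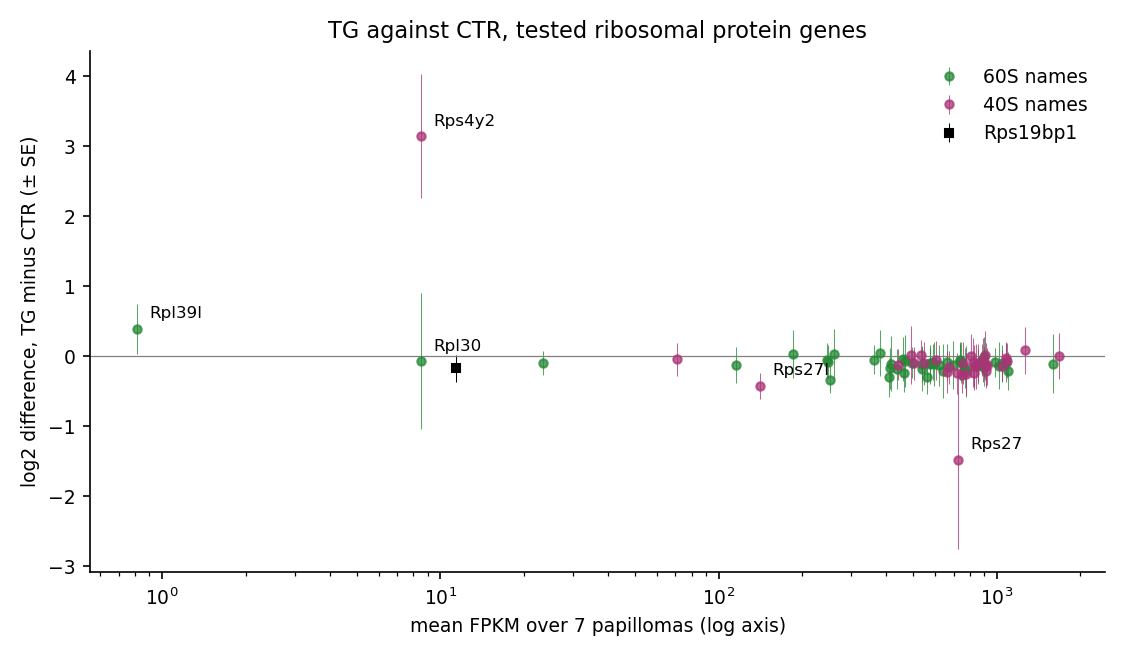
Log2 difference TG minus CTR with its SE against mean FPKM (log axis) for the 79 tested members, coloured by subunit. *Rps4y2* (3.14), *Rps27* (-1.48), *Rps27l* (-0.42) and *Rpl39l* (0.39) lie away from the band of the other genes, and *Rps27* and *Rpl30* have the longest error bars.

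Outside that band, 5 members were below -0.3 and 2 above 0.3. *Rps27l* had 143, 166, 169 and 153 FPKM in CTR 1 to CTR 4 and 123, 94.7 and 138 FPKM in TG 1 to TG 3, a log2 difference of -0.42 ± 0.18 (SE) that was -0.27 without TG 2. *Rpl22l1* had 300.3, 292, 292 and 222 FPKM in CTR and 256, 196 and 204 FPKM in TG, a difference of -0.34 ± 0.19 (SE), and its groups overlapped through CTR 4. *Rpl36al* (-0.30 ± 0.28, SE) and *Rpl18* (-0.30 ± 0.24, SE) had overlapping groups. Without TG 1 these values were -0.59 and -0.45, and without TG 3 they were -0.10 and -0.17. *Rpl36al* was -0.18 and *Rpl18* -0.15 without CTR 3. *Rpl18*, a 60S protein, was highest in CTR 3 at 825 FPKM and lowest in TG 3 at 408 FPKM. On the positive side *Rpl39l* had 0.39 ± 0.36 (SE) at levels under 2 FPKM. This value rests on TG 3 (1.81 FPKM), since it was 0.05 without that papilloma and -0.06 with sample quality weights. It was 0.69 without TG 2 and 0.19 without CTR 1. Smaller positive values were those of *Rps20* (0.08 ± 0.33, SE) and *Rpl31* (0.03 ± 0.35, SE).

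The members varied together from papilloma to papilloma. After each gene was centred on its mean over the 7 papillomas, the median log2 level of the tested members was -0.11, 0.16, 0.33 and -0.17 in CTR 1 to CTR 4 and 0.43, -0.15 and -0.49 in TG 1 to TG 3. The medians of all tested genes lay between -0.17 and 0.03 in 6 papillomas and at 0.21 in TG 3, so that TG 3 was low for ribosomal proteins and high for the average gene. TG 3 had the lowest value in 71 of the 79 members, against 9.37% of all tested genes. TG 1 had the highest in 57 members, against 12.9% of all genes, and CTR 3 in 16. The highest libraries, TG 1 and CTR 3, are the deeper ones, and TG 3 is the one with the muscle, fibroblast and leukocyte transcripts listed above. The part of depth or of these cells in the levels was not tested.

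**Figure D4:**
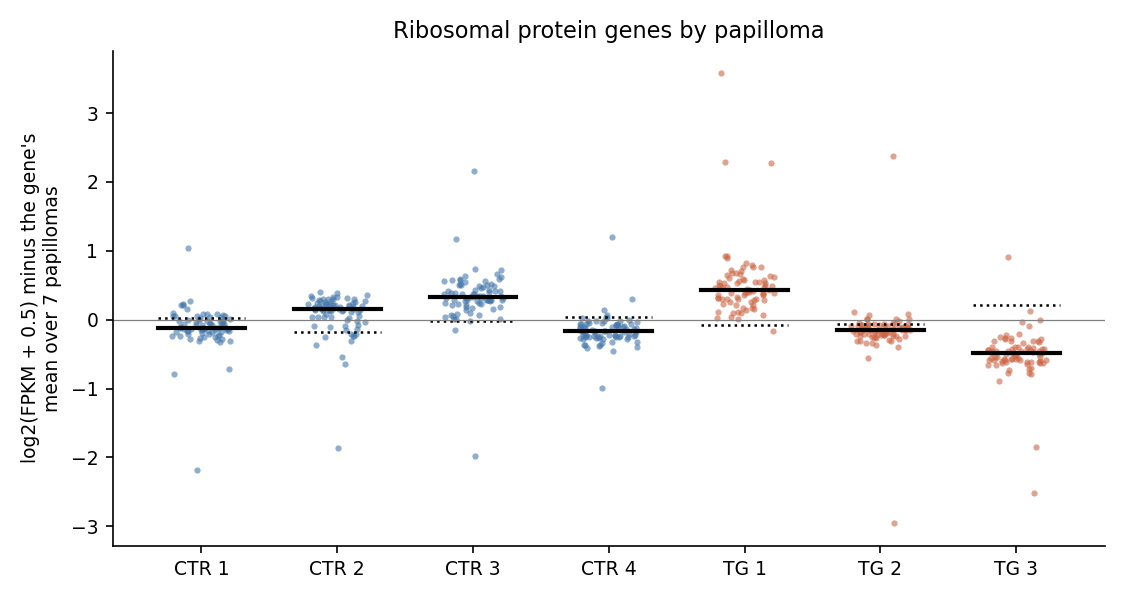
Log2(FPKM + 0.5) of the 79 tested members in each papilloma after subtraction of the gene's mean (points, blue CTR and orange TG), with the median of the members (solid line) and of all 12299 tested genes (dotted line). The members' median is highest in TG 1 (0.43) and CTR 3 (0.33) and lowest in TG 3 (-0.49), where the dotted line is highest (0.21).

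The same order was looked at without *Rps4y2* and the tested genes of shared loci (*Rps27*, *Rpl30* and *Rpl26*), which left 75 members, a choice made after the values were seen. All 75 had a higher mean log2 level in the deeper libraries than in the others, with a median difference of 0.57 and a range from 0.06 to 1.06. Among all tested genes 42% were higher there, with a median of -0.06. This split restates that TG 1 and CTR 3 were the highest papillomas. The 25 members with the shortest transcripts (median 517 bases) had a median of 0.59 and the 25 with the longest (median 1242 bases) 0.46. Lengths are those of the longest coding transcript in GENCODE, which need not be the one expressed. For *Rps20* it has 3706 bases, more than its listed locus spans (chr4:3834473-3835600). TG 3 was higher than the mean of the other papillomas in 2 of 75, with a median difference of -0.56, beside 71% of all tested genes and a median of 0.25. This median was -0.66 in the 25 short and -0.52 in the 25 long members.

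Paralogs with their own locus differed widely in the part they made up of their pair. *Rpl22l1* and *Rpl22* encode 60S proteins that bind RNA outside the ribosome as well, and *Rpl22* had the lower level throughout. It had 104, 136, 135 and 96.7 FPKM in CTR 1 to CTR 4 and 157, 94.7 and 82.0 FPKM in TG 1 to TG 3. *Rpl22l1* made up 61.9% (TG 1) to 74.3% (CTR 1) of the pair. The log2 ratio of the 2 genes was 1.23 ± 0.20 (SD, n = 4) in CTR and 1.02 ± 0.31 (SD, n = 3) in TG, a difference about as large as the SD. Their coding sequences had an identity of 74.2% over the aligned part and no shared window of 40 bases within 2 mismatches. The 90 aligned bases from coding position 175 show this, with differing bases in capitals.
Rpl22: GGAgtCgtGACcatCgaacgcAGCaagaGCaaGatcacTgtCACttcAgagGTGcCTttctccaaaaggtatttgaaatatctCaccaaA
Rpl22l1: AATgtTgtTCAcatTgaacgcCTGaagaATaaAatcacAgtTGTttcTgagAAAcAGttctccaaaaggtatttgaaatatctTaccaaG

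*Rpl36al*, an autosomal copy of the X-linked *Rpl36a*, made up 37.9% to 44.7% of its pair. The part was 42.9%, 40.9%, 41.0% and 44.7% in CTR 1 to CTR 4 and 37.9%, 38.9% and 40.6% in TG 1 to TG 3. The groups did not overlap, but TG 3 was within 1 percentage point of CTR 2. Nor did they for *Rps4y2* in its pair, which was chosen for this contrast (0.194% in TG 3, 0.188% in CTR 2). How often the ratio of any 2 genes has groups without overlap was not computed. The log2 ratio was -0.44 ± 0.11 (SD, n = 4) in CTR and -0.64 ± 0.08 (SD, n = 3) in TG. These 2 coding sequences are 87.7% identical, and 23.3% of windows were within 2 mismatches. *Rps27l* held 6.70% to 67.6% of its pair with *Rps27*, with *Rps27l* itself between 94.7 and 169 FPKM and *Rps27* alone between 45.3 and 1719 FPKM. *Rps27* shares its locus with *Gm9846*, so this part depends on how those 2 entries split their sum. The part was highest in CTR 2, TG 2 and TG 3 (63.1%, 67.6% and 58.6%). In these papillomas *Rps27* held 8.20%, 3.99% and 13.6% of its sum with *Gm9846*. *Rpl7l1*, a relative of *Rpl7* with a role in ribosome assembly, made up 1.84% to 2.89% of its pair and had a log2 ratio of -5.37 ± 0.22 (SD, n = 4) in CTR and -5.38 ± 0.30 (SD, n = 3) in TG.

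*Rpl3l* replaces *Rpl3* in the ribosomes of striated muscle. It had 2.28 FPKM in TG 3, 0.166 FPKM in TG 1, 0.0461 FPKM in CTR 1 and 0 in the other 4 papillomas. TG 3 is also where the 12 skeletal muscle markers were highest. *Rpl3* itself had 460 FPKM in TG 3 and 511 to 697 FPKM in the other papillomas. *Rpl3l* shares no window of 40 bases with another gene.

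**Figure D5:**
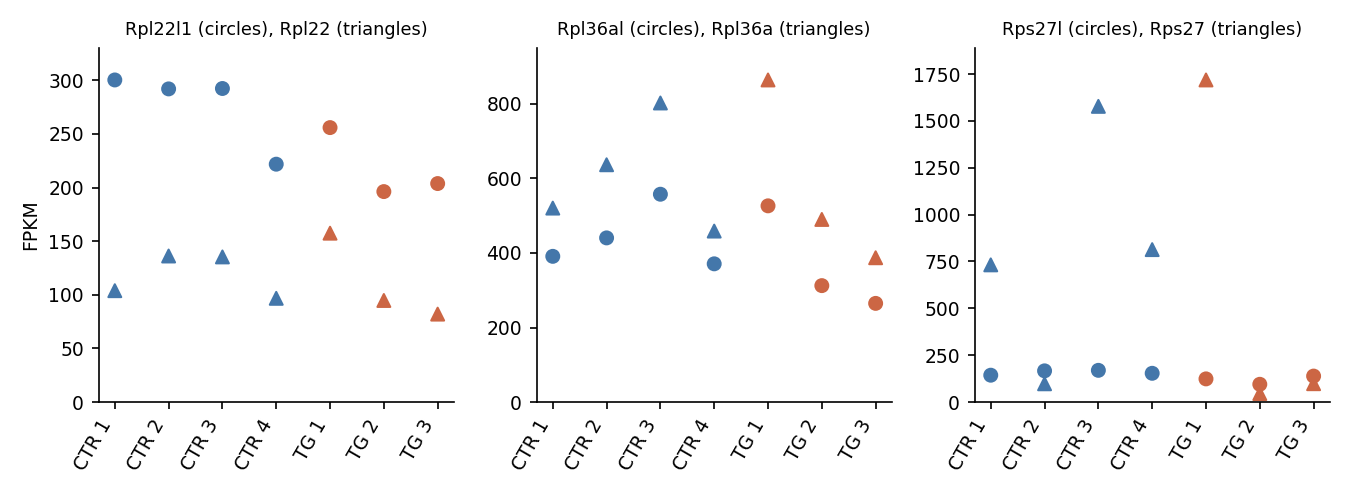
FPKM of 3 paralogs (circles) and their parent genes (triangles) in each CTR (blue) and TG (orange) papilloma. *Rpl22l1* lies above *Rpl22* and *Rpl36al* below *Rpl36a* in all 7 papillomas, whereas *Rps27* ranges from 45.3 to 1719 FPKM around an *Rps27l* level of 94.7 to 169 FPKM. *Rps27* is shown without *Gm9846*, the second entry over its locus.

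Genes around the ribosome gave a background to these values. These lists were fixed with earlier results of these data known, and 0 of their tested genes passed the adjusted threshold in limma. The 7 ribosomal proteins whose names the rule does not match (such as *Rplp0*, *Rplp2* and *Rpsa*, parts of the 60S stalk and of the 40S subunit) were all lowest in TG 3 (all tested genes 9.37%). Of these, 6 of 7 were highest in TG 1 (all tested genes 12.9%). The median log2 difference of the 7 was -0.06, with -0.30 for *Rplp2*, 0.13 for *Rplp0* and -0.10 for *Rpsa*. Among 28 translation factors, 11 were lowest in TG 3 (all tested genes 9.37%), 20 had a lower mean in TG (40%), and the median difference was -0.07. In 1 of the 28 all TG papillomas lay below all CTR papillomas, beside 2.23% of all tested genes. *Eif3m* (-0.29), *Eif6* (-0.28), which keeps the subunits apart, and the chaperone *Naca* (-0.22) had the smallest p-values.

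Ribosome assembly genes had a lower TG mean in 45 of 49 (all tested genes 40%), with a median difference of -0.14. Lowest in TG 3 were 8 of 49 (all tested genes 9.37%). At an unadjusted p under 0.05 from limma, 3 of the 49 were lower and 0 higher, beside 1.96% and 4.86% of all tested genes. *Fbl*, the methyltransferase of ribosomal RNA, had 102, 69.6, 108 and 84.4 FPKM in CTR 1 to CTR 4 and 69.5, 54.3 and 64.0 FPKM in TG 1 to TG 3, a difference of -0.52 ± 0.20 (SE; adjusted p = 0.702 from limma). Its groups touched without overlap, as 69.5 FPKM in TG 1 was just below 69.6 FPKM in CTR 2. *Nop56*, a partner of *Fbl* in the same particle, had 73.5 to 96.7 FPKM in CTR and 60.7 to 69.2 FPKM in TG, a difference of -0.42 ± 0.16 (SE; adjusted p = 0.702 from limma). *Nmd3*, the export adaptor of the 60S subunit, had 31.3 to 33.9 FPKM in CTR and 21.4 to 25.9 FPKM in TG, a difference of -0.41 ± 0.14 (SE; adjusted p = 0.687 from limma). In 6 of the 49 assembly genes all TG papillomas lay below all CTR papillomas, beside 2.23% of all tested genes.

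Mitochondrial ribosomal proteins, which are encoded in the nucleus and serve the ribosome inside mitochondria, had a lower TG mean in 66 of 76 (all tested genes 40%). Their median difference was -0.17, and 24 of 76 were lowest in TG 3 (all tested genes 9.37%). The smallest p-values were those of *Mrpl48* (-0.38), *Mrpl47* (-0.38) and *Mrpl13* (-0.40). In 7 of the 76 the TG papillomas lay below all CTR papillomas, beside 2.23% of all tested genes. Of 17 regulators of ribosomal protein synthesis, 11 had a higher TG mean (7383 of all 12299 tested genes) and the median difference was 0.05. *Tsc1*, an inhibitor of mTORC1, had 0.947 to 1.34 FPKM in CTR and 1.46 to 2.15 FPKM in TG, a difference of 0.40 ± 0.21 (SE; adjusted p = 0.809 from limma). *Tsc1* was the 1 regulator of 17 with all TG papillomas above all CTR papillomas (all tested genes 4.93%), and in 0 did all lie below (2.23%). *Mycl1* (0.32) and *Rptor* (0.28), a subunit of mTORC1, were the other 2 with the smallest p-values.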

How the data were processed

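Libraries of 7 papillomas, 4 CTR and 3 TG, each from another mouse, were analysed. The authors aligned single 40-base reads to GRCm38/mm10 with TopHat 2.0.4 and Bowtie 0.12.7, allowing 2 mismatches and up to 5 hits for a read, and deposited FPKM values from Cufflinks 1.3.0 for 23746 entries, each with an interval and a status. A read with several hits can therefore add to more than 1 entry. Labels name a strand-specific polyA+ kit and RNA integrity numbers of 7.2 to 8.9.

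Entries of a symbol were summed, and the 23122 symbols without a failed estimate in any file were kept. Of the 574 values of members, 572 had the status OK. Log2(FPKM + 0.5) of the 12299 genes that averaged 0.5 FPKM or more was fitted with limma 3.58.1 (R 4.3.3) with a variance trend, all 7 papillomas and no covariate. P-values were 2-sided and adjusted by Benjamini-Hochberg, with a threshold of 0.05. The fit was tested on simulated data. Members past a threshold were counted and named, but the rule used the same contrast, so these counts are descriptions.

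Depth was inferred from interval widths and covers counting error only. Locus starts count from 0 in the files, and 1 was added. Sequences are from GENCODE and RefSeq tables for GRCm38, compared with Python 3.11.15 and Biopython 1.88. Windows were compared as 40-base runs on the sense strand. Symbols of 61 members matched a RefSeq start site.

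Members and gene lists were chosen with earlier results of these data known. Named were *Rps4x* and *Rps4y2*, paralog pairs, the 5 members of highest and of lowest mean, the 5 with the smallest p in each direction, any member with a failed estimate, and the 3 smallest p-values of each related list. Other genes named (*Rpl26*, *Rps19bp1*, *Tmtc1*) were chosen after their values were seen. Not every gene that the rule names is reported here.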

Additional observations from a re-analysis of the deposited data

Results flagged for a closer look

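Values of 29 quantities in the 4 CTR papillomas were examined for a papilloma far from the other 3, by Dixon's ratio of the gap to the whole range (critical value 0.829). Chance alone gives about 5% of such groups. In 5 quantities a papilloma was beyond the critical value. *Rpl34* had 75.6 FPKM in CTR 3 against 615 to 626 FPKM in the other CTR papillomas, and its second entry, *Rpl34-ps1*, had 742 FPKM there. *Rpl31*, a 60S protein, had 278 FPKM in CTR 3 against 147 to 152 FPKM, and 303 FPKM in TG 1, the other deeper library. *Rpl22l1* had 222 FPKM in CTR 4 against 292 to 300.3 FPKM. *Rpl3l* had 0.0461 FPKM in CTR 1 and *Rpl10l* 0.0629 FPKM in CTR 4, while the other CTR papillomas were at 0. The interval width implied at most 1 read for each of the last 2 values, and with the other 3 at 0 the ratio is at its maximum whatever the value.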

How the results depend on the processing

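The values were computed again with pseudocounts of 0.1 and 1, other filters, 4 other scalings, other limma settings, depth as a covariate, the papillomas of lower depth alone, a replicate block, every status kept, the highest entry of a symbol, and each papilloma left out. Adding co-located entries to the gene was chosen after seeing the data. The number of members past the adjusted threshold was 0 in each direction, except that 1 member, *Rps4y2*, was higher with sample quality weights and without TG 3; this gene was chosen for the same contrast, so the call is no independent evidence. Sample quality weights also called 49 genes higher and 36 lower among all 12299, against 0 and 0. Leaving out each papilloma gave 0 to 1 members higher and 0 lower, a median log2 difference of -0.35 to 0.11, an *Rps4y2* difference of 2.25 to 4.32, an *Rps4x* difference of -0.17 to 0.12, and a difference in share of -2.90 to 0.02 percentage points. In the papillomas of lower depth alone the median was -0.26, and with depth as a covariate -0.16. The *Rps27* difference of -1.48 became -0.03 with the co-located entry added, -3.25 with sample quality weights and -0.42 without TG 2. Of 503 alternative values of named members, 2 moved by more than the spread between papillomas, *Rpl7l1* (-0.31) and *Rps27l* (-0.63), both with sample quality weights. The count of members at an unadjusted p under 0.05 changed by over 1.5 times in 11 of 48 alternative values. The lower count of 1 became 0 with robust moderation, the replicate block, a filter at 2 FPKM and without TG 2 or any CTR papilloma, and 3 with sample quality weights. With CTR and TG papillomas of the same replicate number taken as pairs (replicate block), 0 members passed the threshold in either direction and the median was -0.19. Deviations of same-numbered papillomas correlated at -0.19, 0.04 and -0.15, and those of differently numbered ones at -0.22 to 0.31. So few pairs cannot decide whether the numbers pair the papillomas. Shared sequence limits the values of members, among them the 43 with at least 50% of identical windows in another gene. *Rpl34*, with 42.2%, lies outside these 43, although all its windows aligned with *Rpl34-ps1* were within 2 mismatches.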
